A study of Mus musculus with 8 samples.

Results

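The junctions that Sertoli cells form with each other and with germ cells were examined through 33 genes in the testes of C57BL/6 mice treated with an antibody against PD-L1. The 33 genes were chosen by name, as genes of tight, gap and adherens junctions and of the ectoplasmic specialization, out of 57690 rows of the deposited table, and each name was found on 1 row. The study compared bulk testis RNA of 4 anti-PD-L1 libraries, from mice given 2 intraperitoneal injections of 200 µg of anti-PD-L1, with that of 4 IgG libraries, from mice given 2 injections of 200 µg of IgG2b isotype. All mice were C57BL/6 males aged 8 weeks, with no transgene or other treatment named in the labels, and the testes were taken 7 days after treatment. PD-L1 is the ligand through which cells restrain T cells that carry PD-1, and the antibody blocks it. Nothing in the labels ties the 4 libraries of a group to 4 different mice. The p-values below therefore reflect the spread among these libraries, which may be technical.

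Sertoli cells are the epithelial cells of the seminiferous tubule. Near the base of the tubule they are joined by tight junctions, gap junctions and a testis-specific adherens junction bundled with actin, the basal ectoplasmic specialization, and together these form the blood-testis barrier. The barrier separates meiotic and later germ cells from the blood and from immune cells, and an apical ectoplasmic specialization anchors the heads of elongating spermatids to the Sertoli cell.

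Of the 33 genes only Gjd3, a gap junction gene of low abundance, differed between the groups with no overlap of the libraries, and it did not pass the test over all genes. Levels are in TPM, in which counts are divided by gene length and every library is brought to 1 common total. Differences are anti-PD-L1 minus IgG on the scale of log2(TPM + 1), tested with limma over the 20343 genes whose mean reached 1 TPM. This scale understates the change of low genes. Of the 33 genes 26 reached 1 TPM and were tested, and 7 did not. In limma with Benjamini-Hochberg adjustment 0 of the 26 passed an adjusted p of 0.05, as did 0 of all genes tested, which is 0% of them. At an unadjusted p under 0.05 stood 1 of the 26, Gjd3, beside 5.23% of all genes tested (3% higher and 2.22% lower in anti-PD-L1 libraries). Over all genes these were 611 higher and 452 lower, but 481 and 530 with TMM rescaling, 524 and 596 with quantile normalization and 243 and 384 with centring on Sertoli markers. With anti-PD-L1 replicate 1 or IgG replicate 1 left out Nectin2 joined Gjd3, which made 2, and with IgG replicate 4 left out Tjp1 and Espn did, which made 3. The count over all 20343 genes moved as well, from 1063 to 1224 without anti-PD-L1 replicate 1. It was 1012 without IgG replicate 1 and 1861 without IgG replicate 4. The groups did not overlap in 1 of the 26, Gjd3, beside 2.99% of all genes tested (1.76% higher and 1.23% lower in anti-PD-L1 libraries). A share of 1 in 26 is near that background.

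The 26 tested genes had a median log2 difference of 0.006, beside 0.03 over all genes tested, with 15 differences above 0 and 11 below. That split was 11 and 15 with quantile normalization, and 10 and 16 with TMM rescaling or with centring on Sertoli markers. The sign of this median turned with scaling: it was -0.02 with quantile normalization, -0.02 with TMM rescaling and -0.04 after each library was centred on its Sertoli markers. Without rescaling, the median deviation of a library over the 26 genes had a standard deviation of 0.087 within groups, beside the median difference of 0.006. The 0.087 is a spread of single libraries and not the error of a difference between group means. It was not taken after rescaling. The 25 tested genes other than Gjd3 ranged from -0.24 to 0.15, with a median of 0.003. Their adjusted p was from 0.981 to 0.999 (limma, Benjamini-Hochberg). For 23 of the 26 tested genes the 95% confidence interval of the difference lay within 0.5 of 0 on either side, and for 12 of them within 0.3. At 95% confidence these intervals give the sizes of difference that remain possible on the log2(TPM + 1) scale. For low genes that scale understates the change in level.

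**Figure D1:**
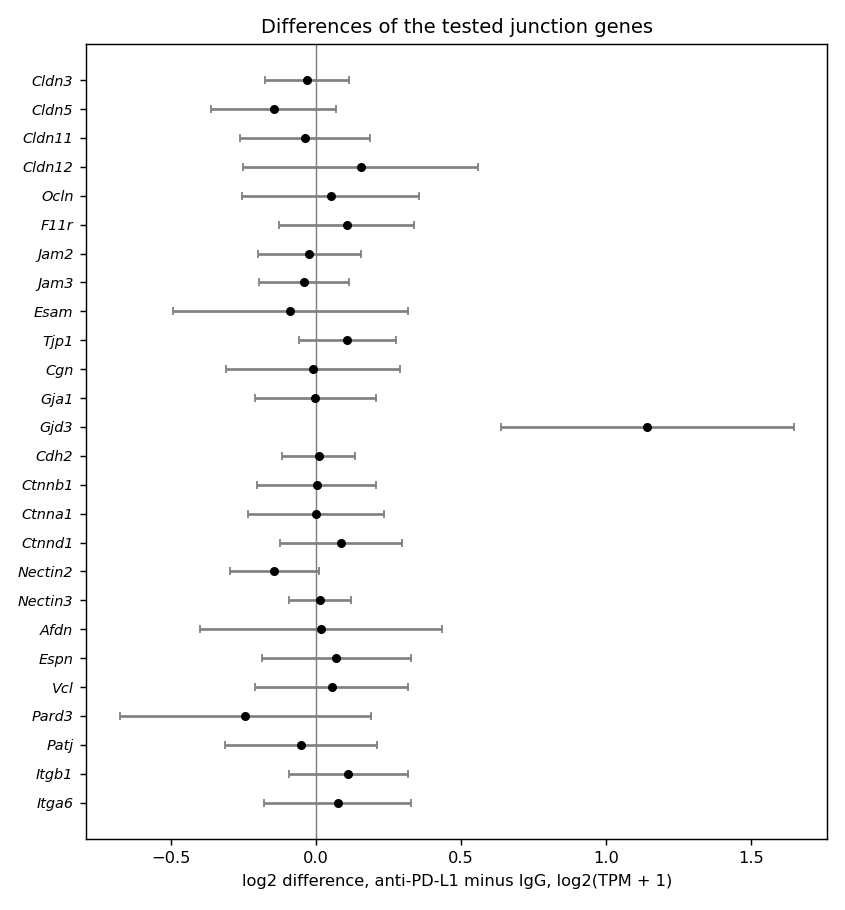
Log2 difference (anti-PD-L1 minus IgG) of the 26 tested junction genes, in order of role, with points for limma estimates and bars for 95% confidence intervals. Gjd3 lies at 1.14 with an interval from 0.64 to 1.65, and the intervals of the other 25 genes include 0.

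Sequences of a few of the genes are given before their values. For Gjd3, the tested gene with no overlap of the groups, this is the start of the coding sequence. For Cldn11, Cldn3, Gja1 and Nectin2, which are abundant genes of the Sertoli cell junctions, these are the promoters. The Gjd3 sequence is from GENCODE release M21 on GRCm38, the assembly also called mm10, chr11:98982717-98983016 on the minus strand, with the start codon in capitals.
Gjd3: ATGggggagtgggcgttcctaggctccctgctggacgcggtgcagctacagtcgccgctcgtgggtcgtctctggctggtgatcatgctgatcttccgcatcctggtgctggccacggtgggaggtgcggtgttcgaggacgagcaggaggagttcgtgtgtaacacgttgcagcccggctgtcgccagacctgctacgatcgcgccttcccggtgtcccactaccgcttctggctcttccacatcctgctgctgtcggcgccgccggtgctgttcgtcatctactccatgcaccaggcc
The annotated transcript of Gjd3 is a single exon of 837 bases, of which bases 1 to 834 code for protein before the stop codon. A single exon leaves no splice junction to tell spliced from unspliced RNA. Its longest run of bases shared with a transcript of another gene was 22, with Ccdc136, in a search on both strands for runs of at least 20 bases, so no near-identical copy of it was annotated there.

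Promoters are the 250 bases before the RefSeq start of the gene on GRCm38.p6, written 5′ to 3′ on the strand of the gene. Capitals mark matches on either strand to any of 5 motifs: the GC box GGGCGG, the TATA box TATAAA, the cyclic AMP response element TGACGTCA, a GATA motif AGATAA and a SOX motif ACAAAG. No matches overlapped in the promoters shown.
Cldn11, chr3:31149670-31149919, plus strand: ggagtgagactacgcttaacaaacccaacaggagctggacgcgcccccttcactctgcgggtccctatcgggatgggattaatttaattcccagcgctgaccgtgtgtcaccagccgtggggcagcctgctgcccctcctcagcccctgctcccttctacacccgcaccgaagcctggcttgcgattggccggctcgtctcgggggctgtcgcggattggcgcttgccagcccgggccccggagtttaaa
Cldn3, chr5:134985964-134986213, plus strand: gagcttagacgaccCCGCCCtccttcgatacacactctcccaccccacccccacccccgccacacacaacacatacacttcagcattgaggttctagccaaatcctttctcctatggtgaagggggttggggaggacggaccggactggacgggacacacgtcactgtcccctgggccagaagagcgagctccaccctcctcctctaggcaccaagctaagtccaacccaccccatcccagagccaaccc
Gja1, chr10:56377050-56377299, plus strand: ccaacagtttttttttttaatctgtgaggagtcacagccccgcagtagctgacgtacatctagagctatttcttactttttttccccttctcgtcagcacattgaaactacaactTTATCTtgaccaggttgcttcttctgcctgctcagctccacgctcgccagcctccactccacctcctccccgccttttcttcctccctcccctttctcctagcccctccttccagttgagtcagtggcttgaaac
Nectin2, chr7:19749574-19749823, minus strand: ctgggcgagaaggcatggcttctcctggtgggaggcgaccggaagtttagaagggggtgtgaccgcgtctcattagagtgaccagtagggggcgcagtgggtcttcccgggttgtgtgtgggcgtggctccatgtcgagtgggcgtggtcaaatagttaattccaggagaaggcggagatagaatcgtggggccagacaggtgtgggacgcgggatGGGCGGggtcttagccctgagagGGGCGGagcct
The Nectin2 window held 2 GC boxes, the Cldn3 window 1 and the Gja1 window a single GATA motif on the opposite strand, while that of Cldn11 held none of the 5 motifs. The RefSeq start of Nectin2 lies 910 bases from the outermost start in GENCODE, so its window is that of an inner start. GC content was 63.6% for Cldn11, 62% for Nectin2, 60.8% for Cldn3 and 50% for Gja1. Of the 33 genes 23 had a promoter in the table, Gjd3 not among them. A GC box was found in 18 of these 23 (78.3%) and in 32.9% of 27025 promoters of the same length. A TATA box was found in 1 of 23 and in 13% of all promoters, a SOX motif in 2 and 16.5%, a GATA motif in 2 and 10.3%, and the cyclic AMP response element in 0 and 1.62%. The 27025 promoters were not matched to the 23 for GC content or for level in testis. A match describes letters in a window and not a bound site.

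The levels of the 33 genes spanned more than 3 orders of magnitude. A mean over the 8 libraries of at least 100 TPM was reached by 2 genes, Nectin3 and Ctnnb1. Another 16 lay from 10 to under 100 TPM, 8 from 1 to under 10 TPM and 7 under 1 TPM. Summed over the 33 genes, the group means came to 928 TPM in anti-PD-L1 libraries and 919 TPM in IgG libraries. Nectin3 alone held 27.4% of the sum in each group. Among tested genes the coefficient of variation within groups had a median of 10.6%, with the lowest value, 2.99%, for Cdh2 and the highest, 27.9%, for Gjd3.

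**Figure D2:**
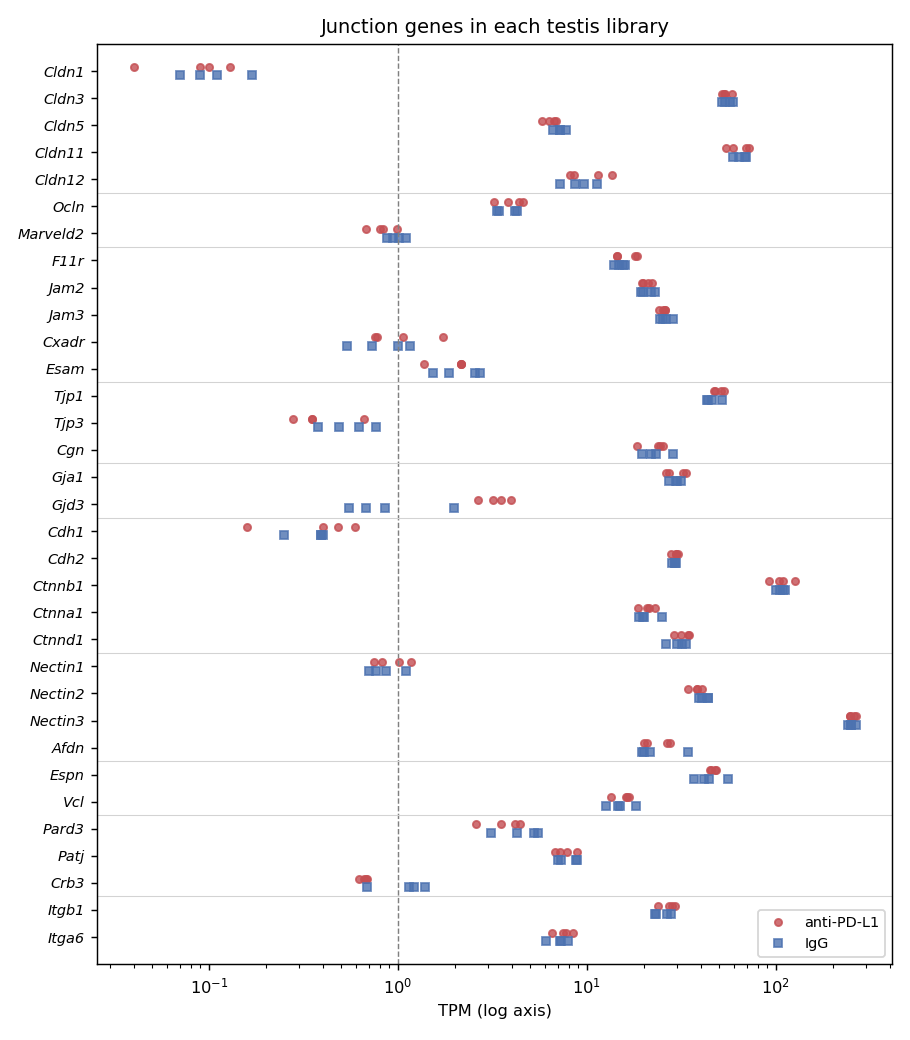
Level of the 33 junction genes in TPM on a log axis, with 1 point per library, circles for the 4 anti-PD-L1 libraries and squares for the 4 IgG libraries, and grey lines between role groups. The dashed line marks 1 TPM, the mean needed for a test. The circles of Gjd3 lie to the right of its squares, from 2.67 to 3.99 TPM against 0.55 to 1.98 TPM.

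On the first principal component, with 32.2% of the variance, anti-PD-L1 replicate 1 lay at 54.5 and IgG replicate 4 at 44.5, apart from the other 6 libraries at -21.1 to -11.7. Sums of 15 Sertoli markers ranged from 1737 to 2480 TPM in anti-PD-L1 libraries and from 1798 to 2114 TPM in IgG libraries, with 11 of the 15 differences above 0 and 4 below. Sums of 8 elongating spermatid markers ranged from 56390 to 64410 TPM in anti-PD-L1 and from 59290 to 74590 TPM in IgG libraries, with 0 differences above 0 and 8 below, 2 of them at an unadjusted p under 0.05. Of 8 round spermatid markers 7 differences were above 0 and 1 below, 3 of the 8 at an unadjusted p under 0.05. Of 5 red blood cell markers 5 were above 0 and none reached that p. All 8 spermatocyte markers were above 0. Of 9 tested macrophage markers 7 were above 0 and 2 below, and of 7 peritubular myoid markers 1 above and 6 below. Leydig cell markers split into 4 and 4, and tested spermatogonia markers into 3 above and 4 below. Over all genes tested 5.23% reached that p. Marker splits were taken without rescaling only. Markers of testis cells were present in each library. Sums of 8 adipocyte markers ranged from 9.12 to 14.2 TPM in anti-PD-L1 libraries and from 12.8 to 99.8 TPM in IgG libraries. IgG replicates 1 and 3 held 99.8 and 34.6 TPM, and IgG replicates 2 and 4 held 12.8 and 14.7 TPM. All 6 tested differences were below 0, 1 of them at an unadjusted p under 0.05. The part of these marker lists in the junction gene values was not tested. Of 10 efferent duct and epididymal markers Lcn8 was at 0 in all libraries, and the sum ranged from 42.5 to 53.4 TPM in anti-PD-L1 libraries and from 43.4 to 50.7 TPM in IgG libraries. Most of that sum was Epcam and Krt8, at means of 37.3 and 7.68 TPM over the 8 libraries. The other markers of the list each had a mean under 1 TPM, among them Lcn9 at 0.015 TPM and Crisp1 at 0.0775 TPM. Among the 26 tested junction genes, anti-PD-L1 replicate 3 was the lowest library of its group for 18, and IgG replicate 4 was the highest of its group for 17 while IgG replicate 1 was the lowest for 15. In bulk RNA, fewer cells of a type and less RNA per cell cannot be told apart.

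**Figure D3:**
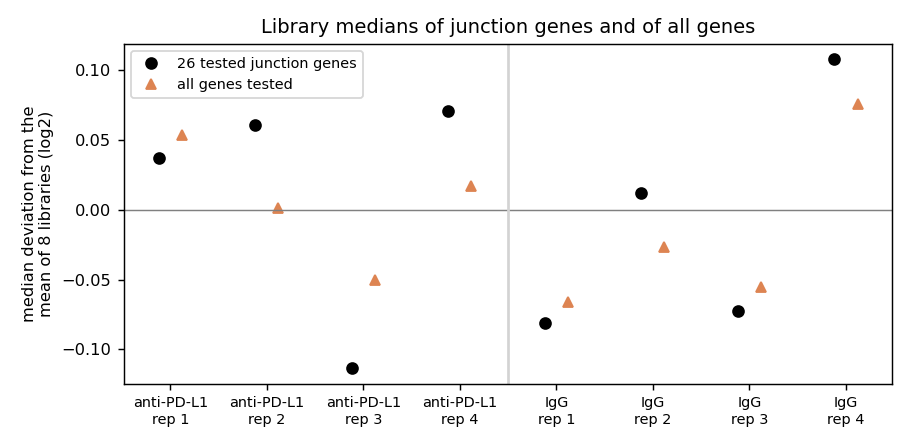
Median deviation of each library from the mean of the 8 libraries, in log2 units, over the 26 tested junction genes (circles) and over all 20343 genes tested (triangles). For junction genes IgG replicate 4 lies highest at 0.11 and anti-PD-L1 replicate 3 lowest at -0.11, and both groups span 0.

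Among gap junction genes, Gjd3 and Gja1 were measured. Gjd3 encodes a connexin, known in mice from the conduction system of the heart, and lies on chromosome 11, 98982180 to 98983016. It was at 3.17, 3.99, 3.5 and 2.67 TPM in the anti-PD-L1 libraries, against 0.86, 0.68, 0.55 and 1.98 TPM in the IgG libraries. All 4 anti-PD-L1 libraries were above all 4 IgG libraries, and IgG replicate 4 was the highest of the IgG group. The means were 3.33 ± 0.555 TPM and 1.02 ± 0.654 TPM (SD, n = 4 each), a ratio of 3.28. Gjd3 differed by 1.14 on the log2 scale (SE 0.22, interval from 0.64 to 1.65) at an unadjusted p of 0.000656 and an adjusted p of 0.476 (limma, Benjamini-Hochberg). A smaller p was reached by 0.123% of the genes tested. An exact permutation test, two-sided and with 70 ways to assign the libraries, gave p = 0.0286, the smallest that 4 against 4 libraries allow. Such a test was run for each of the 33 genes.

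The Gjd3 difference was above 0 under all 17 alternatives that could be fitted, from 1.03 to 1.76. Its adjusted p over these ran from 0.0477 to 1 (limma, Benjamini-Hochberg), and it passed without IgG replicate 4, at a difference of 1.35. That fit drops the IgG library with the highest Gjd3 level, 1.98 TPM against 0.55 to 0.86 TPM in the rest of its group. The filter used the mean over all 8 libraries, 2.175 TPM for Gjd3, and every IgG library left in that fit was under 1 TPM. Over all genes tested 15 passed in that fit. When anti-PD-L1 replicate 1 was dropped too, Gjd3 did not pass, at a difference of 1.36 and an adjusted p of 0.113 (limma, Benjamini-Hochberg). With a pseudocount of 0.1 the Gjd3 difference was 1.76, and a filter of 5 TPM removed the gene. The nearest protein-coding genes did not show the same separation of groups. Top2a, the topoisomerase of dividing cells, which lies 9926 bases upstream on the same strand, was at 80.1 ± 6.56 TPM and 78.1 ± 3.19 TPM in anti-PD-L1 and IgG libraries (SD, n = 4 each). Rara, a retinoic acid receptor 7237 bases away on the opposite strand, was at 18.7 ± 2.55 TPM and 20.4 ± 2.43 TPM in the same order.

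Gja1 encodes the main connexin between Sertoli cells and between Sertoli and germ cells. It was at 27.22, 32.11, 26.12 and 33.35 TPM in the anti-PD-L1 libraries, against 29.53, 29.98, 27.35 and 31.61 TPM in the IgG libraries. The anti-PD-L1 libraries lay on both sides of the IgG libraries. The Gja1 difference was -0.002 (interval from -0.21 to 0.21), and its sign turned with the libraries left out. Ratios of 2 genes within a library were taken after 1 was added to both TPM values, as log2 of the quotient. That of Gja1 to Cldn11 averaged -1.08 ± 0.0526 in anti-PD-L1 and -1.11 ± 0.0482 in IgG libraries (SD, n = 4 each). The ratio differed by 0.03, with p = 0.4 in an exact permutation test and an adjusted p of 0.8 over the 4 ratios tested.

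**Figure D4:**
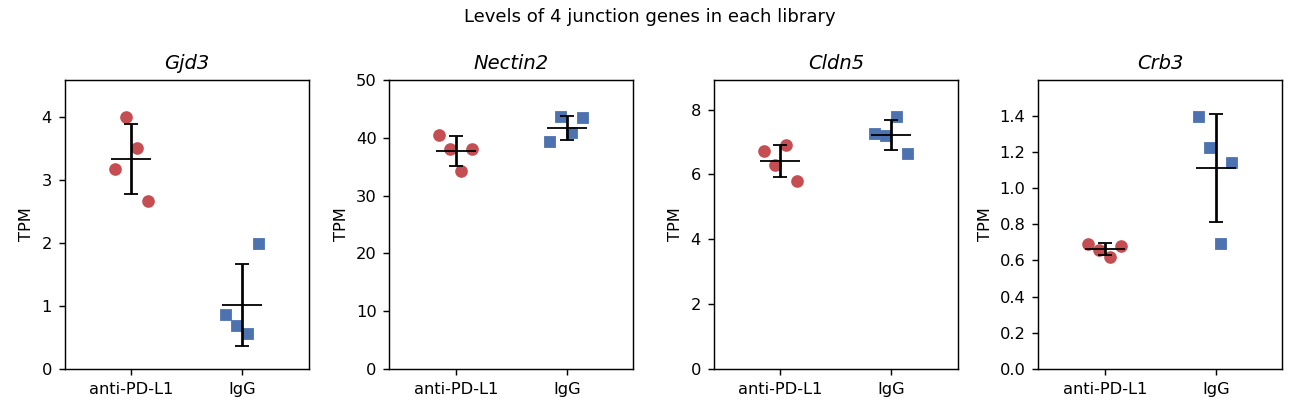
Levels in TPM of Gjd3, Nectin2, Cldn5 and Crb3 in each library, anti-PD-L1 left and IgG right, with bars for the mean and the standard deviation of the 4 libraries. The groups are separate for Gjd3, overlap for Nectin2 and Cldn5, and meet at 0.69 TPM for Crb3.

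Claudins are the membrane proteins that seal tight junctions. Of 5 claudins 4 were tested, with 1 difference above 0 and 3 below. Cldn11, the claudin on which the Sertoli cell tight junction depends, was at 59.67, 71.87, 54.14 and 69.90 TPM in the anti-PD-L1 libraries, against 63.44, 69.35, 59.26 and 68.88 TPM in the IgG libraries. The IgG libraries lay within the range of the anti-PD-L1 libraries. Cldn11 differed by -0.04 (interval from -0.26 to 0.19), a sign that turned without anti-PD-L1 replicate 3. Cldn3, an androgen-regulated claudin of newly assembled barrier, averaged 54.5 ± 3.13 TPM in anti-PD-L1 and 55.7 ± 3.399 TPM in IgG libraries (SD, n = 4 each). The Cldn3 model is a single exon and shares 40 bases with the antisense gene Wbscr25, which was at 177 and 183 TPM in anti-PD-L1 and IgG libraries. The strand setting of the counting is not given in the sources used here, so reads of shared bases cannot be told apart. Within libraries, Cldn11 exceeded Cldn3 in all 8. The log2 ratio averaged 0.22 ± 0.178 and 0.22 ± 0.129 in anti-PD-L1 and IgG libraries (SD, n = 4 each; exact permutation p = 1).

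Cldn5 is a claudin of endothelial cells that Sertoli cells make as well. It was at 6.71, 6.29, 6.90 and 5.79 TPM in the anti-PD-L1 libraries, against 7.25, 7.18, 7.76 and 6.63 TPM in the IgG libraries. Of the IgG libraries 1, replicate 4, lay among the anti-PD-L1 libraries and the other 3 above them. The Cldn5 difference was -0.15 (SE 0.09, interval from -0.36 to 0.07), with the same sign under 18 of 18 alternatives and an exact permutation p of 0.0857. Of 10 endothelial markers 9 were tested, 7 with differences below 0 and 2 above, and none was at 0 in all libraries. Their sum ranged from 41.1 to 55.9 TPM in anti-PD-L1 libraries and from 49.6 to 53.9 TPM in IgG libraries, and their part in the Cldn5 values was not tested. Cldn12, a claudin without the usual scaffold-binding end, averaged 10.4 ± 2.56 TPM and 9.18 ± 1.69 TPM in anti-PD-L1 and IgG libraries (SD, n = 4 each). Cldn1, common in other epithelia, was not tested, at 0.04 to 0.13 TPM and 0.07 to 0.17 TPM in the same order.

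Occludin and tricellulin are tight junction proteins of the MARVEL family, tricellulin at the corners where 3 cells meet. Their genes Ocln and Marveld2 are neighbours on chromosome 13, 43.2 kb apart with 0 protein-coding genes between them. Ocln was at 4.57, 3.82, 3.23 and 4.37 TPM in the anti-PD-L1 libraries, against 3.35, 4.19, 4.28 and 3.44 TPM in the IgG libraries. The groups overlapped, and the Ocln difference was 0.05 (interval from -0.25 to 0.36), with its sign turned without anti-PD-L1 replicate 1. Marveld2 was under the filter, at 0.68 to 0.99 TPM in anti-PD-L1 libraries and 0.88 to 1.11 TPM in IgG libraries.

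Immunoglobulin-fold adhesion proteins sit at tight junctions and hold neighbouring cells to each other. Of 5 such genes 4 were tested, with 1 difference above 0 and 3 below. Jam3 encodes JAM-C, by which mouse spermatids hold on to Sertoli cells. It was at 25.96, 25.80, 23.97 and 25.41 TPM in the anti-PD-L1 libraries, against 26.12, 25.25, 24.23 and 28.66 TPM in the IgG libraries. IgG replicate 4 was the highest library, the groups overlapped, and Jam3 differed by -0.04 (interval from -0.20 to 0.12), with a sign that turned without IgG replicate 4. Jam3 shares 1159 exon bases with the antisense gene Gm48796, which was under 0.5 TPM on average in both groups. Jam2, whose protein JAM-B is the Sertoli cell partner of JAM-C, averaged 20.6 ± 1.11 TPM in anti-PD-L1 and 20.96 ± 1.74 TPM in IgG libraries (SD, n = 4 each).

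F11r, the gene of JAM-A, was at 18.05, 14.47, 14.42 and 18.50 TPM in the anti-PD-L1 libraries, against 15.61, 15.99, 13.89 and 14.72 TPM in the IgG libraries. Anti-PD-L1 replicates 1 and 4 were the highest of the 8, and the other 2 lay among the IgG libraries. F11r differed by 0.11 (SE 0.10, interval from -0.13 to 0.34). Esam, an adhesion gene of endothelial cells, averaged 1.97 ± 0.393 TPM and 2.17 ± 0.570 TPM in anti-PD-L1 and IgG libraries (SD, n = 4 each). Cxadr, which encodes the receptor of coxsackievirus and adenovirus at tight junctions, was under the filter at means of 1.09 and 0.858 TPM in the same order. It shares 695 exon bases with Btg3 on the opposite strand, which was at means of 14.6 and 15.6 TPM.

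Scaffold proteins tie the tight junction to actin. Tjp1, the gene of ZO-1, was at 47.85, 51.07, 47.28 and 53.06 TPM in the anti-PD-L1 libraries, against 43.17, 46.08, 43.60 and 51.92 TPM in the IgG libraries. The 4 anti-PD-L1 libraries lay above 3 of the IgG libraries, and IgG replicate 4 lay within their range. Tjp1 differed by 0.11 (SE 0.07, interval from -0.06 to 0.28), or by 0.17 without IgG replicate 4. Cgn, the gene of cingulin, averaged 23.0 ± 3.05 TPM and 23.2 ± 3.77 TPM in anti-PD-L1 and IgG libraries (SD, n = 4 each). Tjp3, the gene of ZO-3, was under the filter at means of 0.41 and 0.565 TPM in the same order.

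Cadherins join cells through calcium-dependent contacts, and catenins connect them to actin. Cdh2 encodes N-cadherin, the cadherin of the Sertoli cell barrier, and averaged 29.3 ± 1.02 TPM in anti-PD-L1 and 29.0 ± 0.683 TPM in IgG libraries (SD, n = 4 each). Cdh1, the gene of E-cadherin, was under the filter at means of 0.408 and 0.358 TPM in anti-PD-L1 and IgG libraries. The added 1 exceeds the level of Cdh1 in each library, so the ratio of Cdh2 to Cdh1 on that scale understates how far the levels lie apart. It averaged 4.43 ± 0.196 and 4.47 ± 0.0883 on the log2 scale in the same order (SD, n = 4 each; exact permutation p = 0.743, adjusted p = 0.99 over the 4 ratios). Ctnnb1 encodes beta-catenin, which binds cadherin tails. It was at 103.85, 108.71, 91.61 and 125.80 TPM in the anti-PD-L1 libraries, against 100.40, 111.29, 105.64 and 109.44 TPM in the IgG libraries. The anti-PD-L1 libraries held both the lowest and the highest value of the 8. The Ctnnb1 difference was 0.003 (interval from -0.20 to 0.21), and it was below 0 with quantile normalization, TMM rescaling and centring on Sertoli markers. Ctnnb1 shares 759 exon bases with Ulk4 on the opposite strand, which was at means of 124 and 127 TPM in anti-PD-L1 and IgG libraries.

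Ctnnd1, the gene of the catenin that steadies cadherins at the membrane, was at 31.39, 34.56, 28.90 and 34.24 TPM in the anti-PD-L1 libraries, against 26.11, 33.45, 29.97 and 32.06 TPM in the IgG libraries. The groups overlapped, and Ctnnd1 differed by 0.09 (interval from -0.12 to 0.30). Ctnnd1 shares 4482 exon bases with the protein-coding gene Gm28635 on the same strand. Gm28635 was at means of 0.12 and 0.05 TPM in anti-PD-L1 and IgG libraries. Ctnna1, the gene of the catenin that binds actin, averaged 20.9 ± 1.83 TPM in anti-PD-L1 and 20.9 ± 2.76 TPM in IgG libraries (SD, n = 4 each). All 4 tested cadherin and catenin genes had differences above 0, from 0.0009 to 0.09. Quantile normalization, TMM rescaling and centring on Sertoli markers each left 1 of the 4 above 0, Ctnnd1, with Cdh2, Ctnnb1 and Ctnna1 below 0.

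Nectins pair across cells at the ectoplasmic specialization, Nectin2 on Sertoli cells with Nectin3 on spermatids, and afadin links them to actin. Nectin3 was the most abundant of the 33 genes, at 247.20, 264.66, 260.22 and 246.28 TPM in the anti-PD-L1 libraries, against 240.17, 250.49, 250.81 and 266.39 TPM in the IgG libraries. The groups overlapped. Nectin3 differed by 0.02 (interval from -0.09 to 0.12), with the sign turned under TMM rescaling, under centring on Sertoli markers and without IgG replicate 1 or anti-PD-L1 replicate 2. Sums of 8 round spermatid markers ranged from 1522 to 1714 TPM in anti-PD-L1 and from 1403 to 1605 TPM in IgG libraries. Nectin2 was at 40.53, 38.12, 34.24 and 38.19 TPM in the anti-PD-L1 libraries, against 39.24, 43.57, 40.81 and 43.50 TPM in the IgG libraries. Of the anti-PD-L1 libraries 3 lay below all IgG libraries, and replicate 1 lay among them. Nectin2 differed by -0.14 (SE 0.07, interval from -0.30 to 0.01), at an adjusted p of 0.981 (limma, Benjamini-Hochberg) and an exact permutation p of 0.0571. Its sign was the same under 18 of 18 alternatives, from -0.19 to -0.10. Nectin2 shares 135 exon bases with the antisense gene Gm20512, at means of 9.49 and 8.58 TPM in anti-PD-L1 and IgG libraries.

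The log2 ratio of Nectin2 to Nectin3 was -2.58, -2.76, -2.89 and -2.66 in the anti-PD-L1 libraries, against -2.58, -2.50, -2.59 and -2.59 in the IgG libraries. Anti-PD-L1 replicates 2, 3 and 4 lay below the IgG libraries and replicate 1 among them. The ratio differed by -0.16, with an exact permutation p of 0.114 and an adjusted p of 0.457 over the 4 ratios tested. Nectin1, a further nectin, was under the filter at means of 0.94 and 0.86 TPM in anti-PD-L1 and IgG libraries. Afdn, the gene of afadin, averaged 23.7 ± 3.85 TPM and 23.8 ± 6.93 TPM in the same order (SD, n = 4 each), with IgG replicate 4 at 34.15 TPM. It shares 221 exon bases with Tcte2 on the opposite strand, which was at means of 122 and 125 TPM.

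Actin bundles give the ectoplasmic specialization its form. Espn, the gene of the actin-bundling protein espin, was at 47.36, 48.16, 44.69 and 45.25 TPM in the anti-PD-L1 libraries, against 36.86, 44.05, 41.47 and 55.93 TPM in the IgG libraries. The anti-PD-L1 libraries lay above 3 of the IgG libraries and below IgG replicate 4. Espn differed by 0.07 (SE 0.11, interval from -0.19 to 0.33), by 0.18 without IgG replicate 4 and by -0.01 without IgG replicate 1. Vcl, the gene of vinculin, averaged 15.6 ± 1.496 TPM in anti-PD-L1 and 15.1 ± 2.29 TPM in IgG libraries (SD, n = 4 each). It shares 2090 exon bases with Ap3m1 on the opposite strand, at means of 26.1 and 25.1 TPM in the same order.

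Polarity proteins place the junctions along the height of the cell. Both tested genes had differences below 0. Patj, a scaffold of the Crumbs complex, was at 8.89, 7.81, 7.21 and 6.82 TPM in the anti-PD-L1 libraries, against 7.26, 8.82, 7.07 and 8.80 TPM in the IgG libraries. Pard3, a scaffold of the PAR complex, was at 4.17, 4.42, 3.5 and 2.58 TPM in the anti-PD-L1 libraries, against 3.12, 5.24, 4.26 and 5.54 TPM in the IgG libraries. In both genes the groups overlapped. Patj differed by -0.05 (interval from -0.31 to 0.21), and Pard3 by -0.24 (SE 0.19, interval from -0.68 to 0.19). With single libraries left out the Pard3 difference ran from -0.38 without IgG replicate 1 to -0.12 without anti-PD-L1 replicate 4.

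Crb3 encodes the small Crumbs protein of epithelia and was under the filter. It was at 0.69, 0.66, 0.62 and 0.68 TPM in the anti-PD-L1 libraries, against 1.39, 1.22, 0.69 and 1.14 TPM in the IgG libraries. The anti-PD-L1 libraries lay at or below IgG replicate 3 and below the other 3. The means were 0.662 ± 0.0310 TPM and 1.11 ± 0.299 TPM (SD, n = 4 each), and an exact permutation test gave p = 0.0571. With no filter on low values Crb3 differed by -0.33 at an unadjusted p of 0.0328 and an adjusted p of 1 (limma, Benjamini-Hochberg). In that fit 1512 of 37295 genes had an unadjusted p under 0.05.

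Integrins of the apical ectoplasmic specialization bind laminin. Itgb1, a beta subunit, was at 28.06, 27.36, 23.91 and 29.39 TPM in the anti-PD-L1 libraries, against 26.51, 22.92, 23.13 and 27.78 TPM in the IgG libraries. The groups overlapped, and Itgb1 differed by 0.11 (SE 0.09, interval from -0.09 to 0.32). Itga6, an alpha subunit that pairs with it, averaged 7.57 ± 0.795 TPM and 7.14 ± 0.762 TPM in anti-PD-L1 and IgG libraries (SD, n = 4 each).

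Other genes of the junctions were read from 7 lists chosen for their roles, 97 of whose genes were tested. None of the 97 passed in limma with Benjamini-Hochberg adjustment, and 2 had an unadjusted p under 0.05, both higher, where 5.23% of all genes tested did. With a library left out that count was 0 (IgG replicate 2 or 3), 1 (anti-PD-L1 replicate 3 or 4), 3 (anti-PD-L1 replicate 1) or 6 (IgG replicate 4). The count over all genes tested, 1063 with every library kept, moved as well. It fell to 774 and 803 for IgG replicates 2 and 3, and to 1038 and 908 for anti-PD-L1 replicates 3 and 4. For anti-PD-L1 replicate 1 it rose to 1224, and for IgG replicate 4 to 1861. The junction count stayed at 2 when IgG replicate 1 was dropped (1012 over all genes) or anti-PD-L1 replicate 2 (893). Groups did not overlap in 2 of the 97, against 2.99% of all genes. Mpp5, the gene of the Crumbs complex scaffold PALS1, was at 24.79, 24.22, 22.96 and 24.71 TPM in the anti-PD-L1 libraries, against 21.59, 20.61, 20.58 and 22.37 TPM in the IgG libraries. All 4 anti-PD-L1 libraries were above all IgG libraries. Mpp5 differed by 0.18 (SE 0.06) at an adjusted p of 0.812, and by 0.12 after centring on Sertoli markers (limma, Benjamini-Hochberg).

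Rdx, the gene of radixin, which ties actin to the membrane, averaged 89.6 ± 4.21 TPM in anti-PD-L1 and 81.3 ± 5.02 TPM in IgG libraries (SD, n = 4 each). Rdx differed by 0.14 (SE 0.06) at an adjusted p of 0.94, or by 0.09 after centring on Sertoli markers (limma, Benjamini-Hochberg). Itga9, an integrin alpha subunit, ranged from 2.58 to 2.68 TPM in anti-PD-L1 libraries and from 1.19 to 2.57 TPM in IgG libraries, which just failed to meet. Its difference of 0.29 was 0.14 without IgG replicate 2. Cadm1, an adhesion gene of germ cells, differed by 0.16 at an unadjusted p of 0.0570 (limma). Lsr, of tricellular junctions, differed by 0.14, Gja6, a further connexin, by -0.13, and the TGF-beta receptor gene Tgfbr1 by 0.09.

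By list, 9 of 13 tested tight junction genes, 4 of 6 gap junction genes and 6 of 18 adherens and desmosome genes had differences above 0. The same held for 15 of 20 genes of the ectoplasmic specialization and focal adhesion, 9 of 12 polarity genes, 10 of 15 laminin and integrin genes and 9 of 13 barrier regulators. List medians ran from -0.05, for adherens and desmosome genes, to 0.07, for tight junction genes, beside 0.03 over all genes tested. The same 97 genes were split into 62 above 0 and 35 below in all, but into 55 and 42 with quantile normalization or TMM rescaling and into 45 and 52 with centring on Sertoli markers. Of the cytokines on the list of barrier regulators, Tnf, Il6 and Ifng had means under 0.05 TPM in both groups. Il1a averaged 0.388 and 0.41 TPM, Tgfb2 averaged 0.263 and 0.27 TPM, and Tgfb1 averaged 8.00 and 8.00 TPM in anti-PD-L1 and IgG libraries, and Tgfb3 averaged 4.51 ± 0.617 TPM and 4.93 ± 0.525 TPM in anti-PD-L1 and IgG libraries (SD, n = 4 each).

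**Figure D5:**
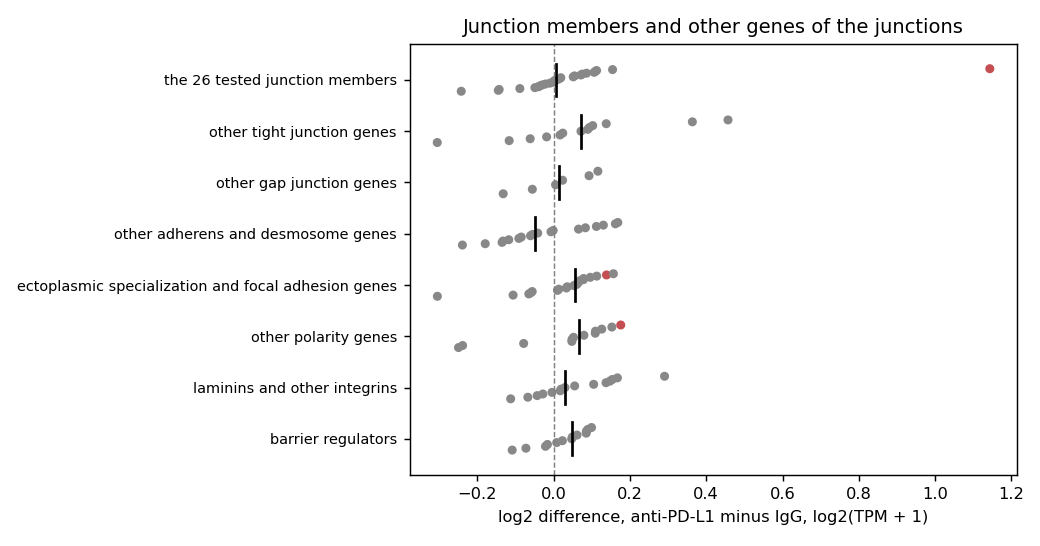
Log2 differences (anti-PD-L1 minus IgG) of the 26 tested junction genes and of the tested genes of 7 further lists, with 1 point per gene, red where the unadjusted p was under 0.05, and a black bar at each list's median. The medians lie from -0.05 to 0.07, and Gjd3 at 1.14 is the point farthest from 0.

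In the table's own annotation columns, the authors' deposited Gene Ontology terms named tight junctions for 20 of the 33 genes, adherens junctions for 15 and gap junctions for 4. Those terms named spermatogenesis for 3, Cldn11, Jam3 and Gja1. Gene models of a single exon were found for 3 genes, Cldn3, Cldn5 and Gjd3.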

How the data were processed

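Testis RNA of 4 anti-PD-L1 and 4 IgG libraries was analysed, grouped by sample title. RNA was isolated with TRIzol and prepared with a TruSeq kit, per the labels' protocols. The table deposited by the authors gives TPM per gene. Per the submitters' processing notes CASAVA 1.8, HISAT2, StringTie and RSEM and the build mm10 were used, with their roles, gene models, filters and strandedness not given in the sources used here. Since TPM does not preserve depth, the depth is unknown, and counting error has no interval.

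The 33 genes and all lists were chosen with earlier results of these data known. Values were transformed to log2(TPM + 1), those genes whose mean reached 1 TPM were fitted with limma 3.58.1 in R 4.3.3 with an intensity trend and a group term, and p-values were adjusted over all 20343 genes by the Benjamini-Hochberg method at 0.05. The fit was tested on simulated data. Any pair of libraries had equal values in at most 2.48% of the rows above 0 in either. Full values are given, in each role group, for the tested gene with the highest mean and that with the smallest p, and for any with p under 0.05 or no overlap. From each further list the gene with the smallest p and those under 0.05 are named; Tnf, Il1a, Il6, Ifng and the 3 Tgfb genes and the library values of Crb3 were added after their values were seen. Positions are from GENCODE M21, in which all 33 identifiers were found. For single genes and 4 ratios, exact permutation tests (two-sided) were run in Python 3.11.15. The alternatives tried were quantile normalization, TMM rescaling (30% of M and 5% of A values trimmed), centring on Sertoli markers, array quality weights, no trend, a pseudocount of 0.1, a filter at 5 TPM or none at all, the replicate block, leaving out each library, and leaving out both IgG replicate 4 and anti-PD-L1 replicate 1.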

Additional observations from a re-analysis of the deposited data

Results flagged for a closer look

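A library far from the other 3 of its group was found in 5 of 88 groups of 4 libraries, where chance gives about 1 in 20 groups. Esam was at 1.38 TPM in anti-PD-L1 replicate 2 and from 2.16 to 2.17 TPM in the other anti-PD-L1 libraries. Vcl was at 13.43 TPM in anti-PD-L1 replicate 3 and from 16.2 to 16.7 TPM in the others of that group. Afdn was at 34.15 TPM in IgG replicate 4 and from 19.7 to 21.6 TPM in the other IgG libraries. Cdh1 was at 0.25 TPM in IgG replicate 3 and from 0.39 to 0.40 TPM in the other IgG libraries. The log2 ratio of Nectin2 to Nectin3 was -2.496 in IgG replicate 2 and from -2.59 to -2.58 in the other IgG libraries.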

How the results depend on the processing

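No junction gene passed an adjusted p of 0.05 under any alternative run except Gjd3 without IgG replicate 4, and the cause was not tested for the changes below. Genes past the threshold over all genes numbered 0, and 1 with a pseudocount of 0.1, 5 with array quality weights, 8 without both outlying libraries (anti-PD-L1 replicate 1 and IgG replicate 4), and 0 to 15 with single libraries left out. Junction genes at an unadjusted p under 0.05 numbered 1, and 2 with no filter, with quantile normalization, with TMM rescaling and without both libraries, 3 with array quality weights, 0 with a filter of 5 TPM, which removes Gjd3, and 1 to 3 with single libraries left out. Other junction genes under it numbered 2, and 1 with quantile normalization, TMM rescaling or no intensity trend, 0 with centring on Sertoli markers, 7 with array quality weights, 5 without both libraries, and 0 to 6 with single libraries left out. Of all 20343 genes 1063 were under it, 2155 with array quality weights and 2009 without both libraries. With single libraries left out that count ran from 774 without IgG replicate 2 to 1861 without IgG replicate 4. It was 1120 with quantile normalization, 1011 with TMM rescaling, 992 with no intensity trend and 627 with centring on Sertoli markers. With no filter 33 junction genes and 37295 genes in all were tested, and 1512 of the 37295 were under it. With a filter of 5 TPM 22 and 12897 were tested, and 774 of the 12897 were under it. With single libraries left out Gjd3 differed by 1.03 to 1.35 and the median of the junction genes ran from -0.02 to 0.07.

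Differences near 0 changed sign. With array quality weights the differences were 0.029 for Cldn11, -0.023 for Ocln, 0.0017 for Jam3 and 0.068 for Gja1. Without both libraries they were 0.020 for Cldn11, -0.041 for Ocln, 0.067 for Gja1, 0.063 for the ratio of Cldn11 to Cldn3 and 0.021 for that of Cdh2 to Cdh1. Ctnnb1 differed by -0.014 with quantile normalization, -0.027 with TMM rescaling and -0.048 with centring on Sertoli markers, and Nectin3 by -0.015 and -0.036 with TMM rescaling and centring. With single libraries left out the ranges were -0.095 to 0.039 for Cldn11, -0.0038 to 0.13 for Ocln, -0.073 to 0.0046 for Jam3, -0.058 to 0.056 for Gja1, -0.075 to 0.076 for Ctnnb1, -0.0075 to 0.042 for Nectin3 and -0.013 to 0.18 for Espn. For the ratios they were -0.076 to 0.061 for Cldn11 to Cldn3 and -0.13 to 0.024 for Cdh2 to Cdh1.

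Samples of the same replicate number did not deviate together, with correlations of -0.115, 0.1, 0.0896 and -0.198 for numbers 1 to 4 over all genes tested. The numbers were not taken as pairs. Across the groups the largest such correlation was 0.359, between anti-PD-L1 replicate 1 and IgG replicate 4. With the replicate block Gjd3 differed by 1.14 at an adjusted p of 0.91 (limma, Benjamini-Hochberg), 0 genes passed, and 1 junction gene and 2 other junction genes had an unadjusted p under 0.05. Array quality weights lower the weight of libraries that stand apart. TPM without depth limits what can be said of genes near or under 1 TPM, Gjd3 among them.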
